A study of Homo sapiens with 12 samples.

Results

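The genes of the nuclear lamina and inner nuclear membrane were followed in RNA-seq counts from 12 libraries of IMR90, a normal fibroblast line from human lung. The set was chosen by the place of the proteins in the nuclear envelope and held 10 genes: the lamin genes LMNA, LMNB1 and LMNB2, the lamin B receptor LBR, the LEM domain genes TMPO, EMD and LEMD3 with their shared partner BANF1, and the SUN domain genes SUN1 and SUN2. They are 10 of the 48162 gene IDs of each library, and all 10 passed the filter on low counts in each comparison. The 4 groups held 3 libraries each. Control cells carried the empty retroviral vector pBABE-Control. RAS cells carried pBABE-HRASG12V, which expresses an oncogenic form of HRAS that drives fibroblasts into senescence, a lasting arrest of the cell cycle. RAS/shDOT1L cells carried pBABE-HRASG12V together with pLKO.1-shDOT1L, a hairpin RNA against DOT1L, the enzyme that methylates a lysine in the core of histone H3. The library titles do not name the hairpin, and the paper lists more than 1. DOT1L OE cells carried MSCB-hDot1lwt, which overexpresses DOT1L. All cells grew in 2% oxygen. Selection took 4 days and used 3 µg/mL of puromycin, except in DOT1L OE, where 1 µg/mL of blasticidin was used. The labels give the RAS libraries no hairpin vector, so the second virus and the loss of DOT1L cannot be told apart in RAS/shDOT1L against RAS. The vector, the drug and DOT1L itself likewise cannot be told apart in DOT1L OE against control.

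The lamina is a meshwork of intermediate filament proteins that lines the inner face of the nuclear envelope. A-type lamins (lamin A and lamin C, both from LMNA) and B-type lamins (lamin B1 from LMNB1 and lamin B2 from LMNB2) form it, and membrane proteins tie it to chromatin on the inside and to the cytoskeleton on the outside. LBR binds B-type lamins and heterochromatin and is also a sterol reductase of cholesterol synthesis. Proteins with a LEM domain bind the small DNA-bridging protein encoded by BANF1, while SUN proteins reach across the envelope to nesprins. Loss of lamin B1 is a widely used mark of senescent fibroblasts.

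The targeted genes followed their labels. DOT1L stood at 33.5, 29.1 and 32.5 CPM (counts scaled to a library of 1e6, computed here with TMM-scaled library sizes) in the control libraries, 82.2, 82.7 and 88.4 in RAS, 10.2, 11.4 and 11.4 in RAS/shDOT1L and 208, 207 and 191 in DOT1L OE. HRAS averaged 85.9 ± 2.82 CPM (SD, n = 3, as below) over the control libraries, 503 ± 10.01 with RAS alone, 275 ± 13.002 with RAS and the hairpin and 79.4 ± 5.46 with extra DOT1L, so RAS/shDOT1L held less HRAS RNA than RAS. The libraries held 16128055 to 19503457 counts. The 6 fibroblast markers COL1A1, COL1A2, COL3A1, VIM, THY1 and PDGFRB summed to between 14287 and 18904 CPM in each library, while the sums of epithelial, endothelial and blood cell markers stayed at or under 1.54, 1.97 and 0.374 CPM, with SFTPC at 0 in all 12. Mitochondrial genes took 3.76% ± 0.12 of the RAS counts, and 2.44% ± 0.12, 2.26% ± 0.17 and 2.33% ± 0.088 of those of control, RAS/shDOT1L and DOT1L OE, and the part of this difference in the results was not tested.

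The genes lay on 8 chromosomes and differed widely in level. In control cells LMNA (chr1:156082573-156140081, GRCh38, plus strand) was by far the most abundant at 193 CPM per kb of merged exon, a scale that allows for gene length. Merged exons join all annotated transcripts of a gene, and which of them these cells express was not tested. Levels and ratios per kb between genes are therefore approximate. BANF1 (chr11:66002228-66004149, plus strand) followed at 57.5, EMD (chrX:154379273-154381574, plus strand) at 51.3 and LMNB2 (chr19:2427638-2456959, minus strand) at 23.2. SUN2 (chr22:38733290-38794143, minus strand) was at 9.83 and SUN1 (chr7:816615-896435, plus strand) at 7.15 CPM per kb. The least abundant were TMPO (chr12:98515579-98550351, plus strand) at 3.38, LEMD3 (chr12:65169583-65248355, plus strand) at 2.95, LMNB1 (chr5:126776623-126837020, plus strand) at 2.40 and LBR (chr1:225401502-225428925, minus strand) at 2.18. The strand setting of the counts is not given in the sources used here. Of SUN2's exon bases, 13.6% are shared with GTPBP1 on the opposite strand and 0.91% with DNAL4 on the same strand. SUN1 shares 15.5% with GET4 on the same strand, and TMPO shares 7.60% with TMPO-AS1 on the opposite strand, so reads in these stretches are of uncertain origin. Pseudogene copies of TMPO and BANF1 held at most 0.14% of their counts.

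**Figure D1:**
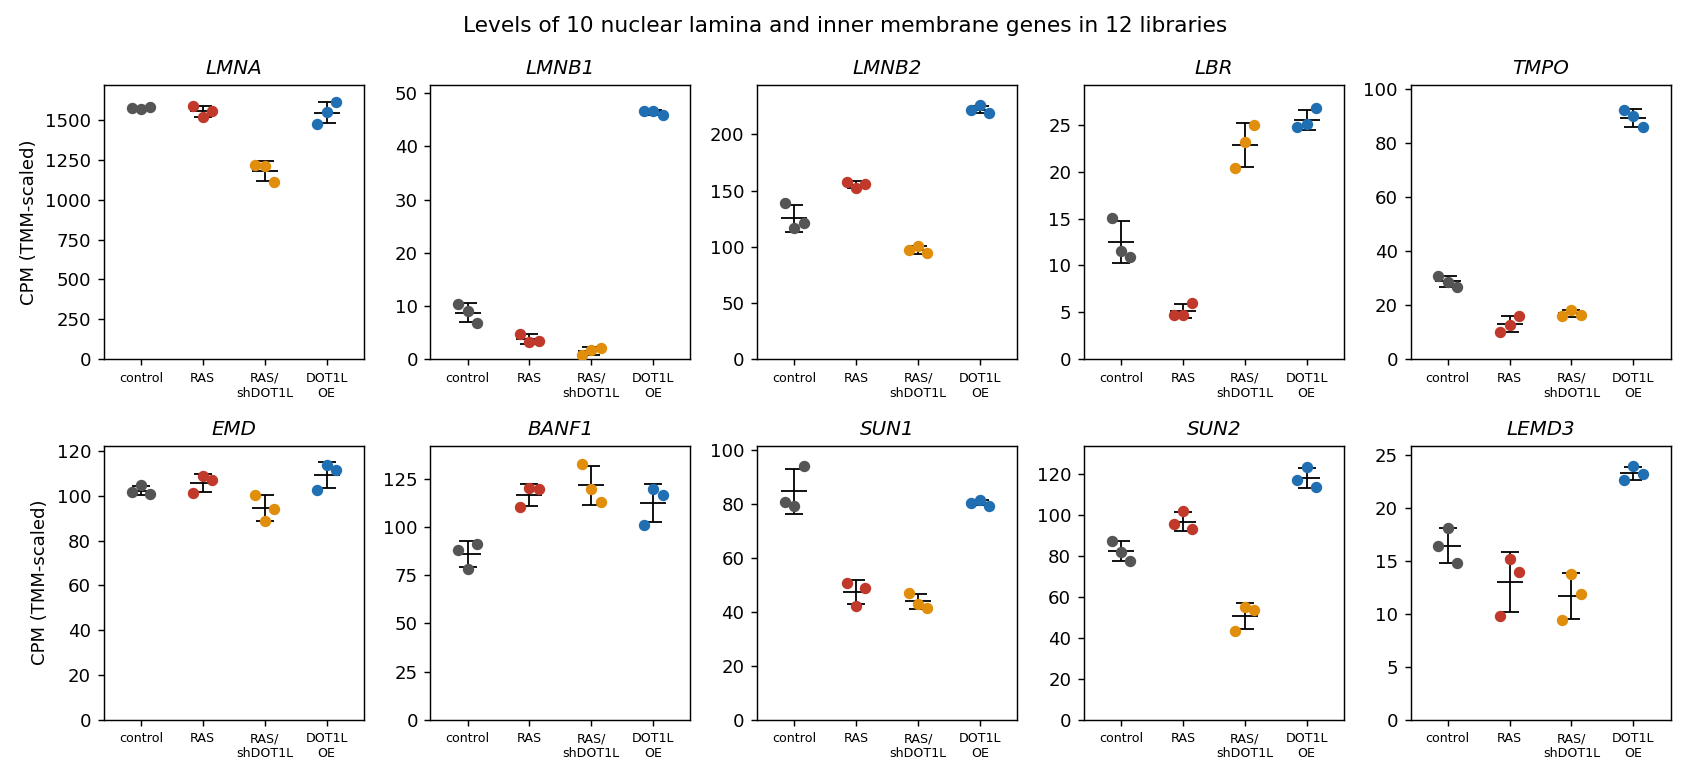
Levels of the 10 genes in CPM (linear axes from 0) in each of the 12 libraries, with 1 point per library and bars for the mean ± SD of the 3 libraries of a group. LMNB1 and TMPO are highest in all 3 DOT1L OE libraries, LBR is lowest in RAS, and LMNA is lowest in RAS/shDOT1L.

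The stretches just upstream of 6 of the genes are shown. LMNB1, LMNB2, TMPO, LEMD3 and SUN2 are the genes that were higher in DOT1L OE than in control and lower in RAS/shDOT1L than in control, while BANF1 was higher in both. Each run holds the 250 bases before the RefSeq start (GRCh38.p14), 5′ to 3′ on the gene's strand. Capitals mark matches on either strand to any of TTTGGCGC and TTTCCCGC (E2F type), TTTGAA (the CHR element of cell cycle genes), CCAAT (NF-Y), GGGCGG (the GC box) and TGANTCA (AP-1).
LMNB1, chr5:126776886-126777135, plus strand: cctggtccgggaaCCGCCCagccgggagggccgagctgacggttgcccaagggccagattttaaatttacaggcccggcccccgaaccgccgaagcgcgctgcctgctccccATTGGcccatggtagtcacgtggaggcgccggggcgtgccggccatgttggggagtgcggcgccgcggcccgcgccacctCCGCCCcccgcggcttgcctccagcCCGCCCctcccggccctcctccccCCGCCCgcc
LMNB2, chr19:2456960-2457209, minus strand: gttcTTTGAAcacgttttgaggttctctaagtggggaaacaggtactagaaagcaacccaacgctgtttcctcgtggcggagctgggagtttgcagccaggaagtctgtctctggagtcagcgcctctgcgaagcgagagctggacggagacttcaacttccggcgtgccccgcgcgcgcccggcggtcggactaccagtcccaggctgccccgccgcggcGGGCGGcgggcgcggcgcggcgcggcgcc
TMPO, chr12:98515340-98515589, plus strand: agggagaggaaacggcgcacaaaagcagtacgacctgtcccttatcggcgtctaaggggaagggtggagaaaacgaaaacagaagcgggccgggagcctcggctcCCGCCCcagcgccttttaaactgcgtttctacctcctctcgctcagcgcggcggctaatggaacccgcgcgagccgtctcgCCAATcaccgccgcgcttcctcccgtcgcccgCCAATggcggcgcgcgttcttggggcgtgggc
LEMD3, chr12:65169333-65169582, plus strand: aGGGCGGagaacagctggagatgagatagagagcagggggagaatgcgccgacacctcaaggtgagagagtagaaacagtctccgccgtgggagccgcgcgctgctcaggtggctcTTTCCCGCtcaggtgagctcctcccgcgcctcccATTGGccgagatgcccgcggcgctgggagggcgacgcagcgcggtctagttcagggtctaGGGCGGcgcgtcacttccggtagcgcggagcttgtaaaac
SUN2, chr22:38755999-38756248, minus strand: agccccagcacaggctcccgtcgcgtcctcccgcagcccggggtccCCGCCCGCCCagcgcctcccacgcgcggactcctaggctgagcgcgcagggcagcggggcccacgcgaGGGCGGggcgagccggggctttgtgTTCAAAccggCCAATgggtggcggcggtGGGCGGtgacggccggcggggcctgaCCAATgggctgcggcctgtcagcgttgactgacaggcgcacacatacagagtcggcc
BANF1, chr11:66002253-66002502, plus strand: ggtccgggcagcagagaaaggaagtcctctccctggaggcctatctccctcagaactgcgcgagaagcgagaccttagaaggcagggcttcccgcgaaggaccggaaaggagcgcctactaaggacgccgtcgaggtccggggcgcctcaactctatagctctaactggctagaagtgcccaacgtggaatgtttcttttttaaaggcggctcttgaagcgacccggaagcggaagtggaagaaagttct
The LMNB1 window held 1 CCAAT match (138 bases before the start, on the minus strand, read above as its reverse complement) and 4 GC boxes. The LMNB2 window held no CCAAT match but 1 TTTGAA match, 246 bases before the start, and 1 GC box. The TMPO window held 2 CCAAT matches, 64 and 32 bases before the start, and 1 GC box. The LEMD3 window held the E2F-type letters TTTCCCGC 134 bases before the start, 1 CCAAT match 100 bases before it and 2 GC boxes. The SUN2 window held 1 TTTGAA match (111 bases before the start), 2 CCAAT matches (101 and 57 bases before it) and 4 GC boxes. The BANF1 window held none of the 6 motifs. LBR was higher in both comparisons too, and its RefSeq window, which lies 783 bases away from the start of its main transcript and is not shown, held 1 AP-1 match. Of 35116 windows of the same length over all genes in the table, 32% held CCAAT, 42.6% GGGCGG, 1.39% TTTCCCGC, 0.55% TTTGGCGC, 13.3% TTTGAA and 6.57% TGANTCA. In these 6 windows the only overlap was between 2 GC boxes of SUN2, 204 and 200 bases before the start. Windows were found for 9 of the 10 genes. The window of EMD, a gene that passed the main test in no comparison, is not shown. It held CCAAT matches 224 and 115 bases before the start and also GC boxes. That of LMNA, 7995 bases away from the start of its main transcript, held GC boxes 145 and 50 bases before the start. Whether the motifs have a part in the changes was not tested.

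Among the lamins, LMNB1 had the widest range over the groups. It stood at 10.4, 9.05 and 6.78 CPM in control, at 4.77, 3.15 and 3.32 in RAS, at 0.717, 1.69 and 2.14 in RAS/shDOT1L and at 46.6, 46.7 and 45.9 in DOT1L OE. No group overlapped with its neighbour, and the order was DOT1L OE, control, RAS, RAS/shDOT1L. The values rest on few reads outside DOT1L OE: 201, 168 and 135 counts in control, 80, 52 and 52 in RAS and 11, 27 and 34 in RAS/shDOT1L, against 874, 1000 and 982 in DOT1L OE. Against control, LMNB1 was 2.33-fold lower in RAS (log2 change -1.22 ± 0.24, SE as in all log2 changes here, edgeR adjusted p = 5.88e-05), and in DOT1L OE it was raised 5.33-fold (log2 change 2.41 ± 0.12, edgeR adjusted p = 7.55e-18). In these bulk libraries, fewer cells that express a gene and less of its RNA per cell cannot be told apart. The drop from RAS to RAS/shDOT1L was a further 2.43-fold (log2 change -1.28 ± 0.44, edgeR adjusted p = 0.0154), and its call was lost without RAS replicate 1 (-1.07, adjusted p = 0.0974) and without RAS/shDOT1L replicate 1 (-0.94, adjusted p = 0.0680). The fall from control to RAS/shDOT1L was 5.69-fold (log2 change -2.51 ± 0.32, edgeR adjusted p = 1.17e-07).

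LMNB2, the other B-type gene, was at 138.9, 116.5 and 120.7 CPM in control, 158.0, 151.9 and 156.2 in RAS, 96.8, 100.7 and 94.2 in RAS/shDOT1L and 221, 226 and 219 in DOT1L OE. No 2 groups overlapped, and here RAS stood above control. From control to RAS LMNB2 rose 1.24-fold (log2 change 0.31 ± 0.06, edgeR adjusted p = 4.16e-05), a direction that turned to -0.26 (adjusted p = 0.000629) with a GC offset, a fit that takes out the trend of the change with the GC content of transcripts. From RAS to RAS/shDOT1L it fell 1.58-fold (log2 change -0.66 ± 0.06, edgeR adjusted p = 1.70e-10), or by 0.27 on the log2 scale with the GC offset. DOT1L OE exceeded control 1.78-fold (log2 change 0.83 ± 0.06, edgeR adjusted p = 3.38e-14).

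LMNA differed least among the lamins. Its values were 1576, 1568.5 and 1580 CPM in control, 1589, 1518 and 1556 in RAS, 1217, 1213 and 1109 in RAS/shDOT1L and 1478, 1549 and 1611.5 in DOT1L OE. Control, RAS and DOT1L OE overlapped, and all 3 RAS/shDOT1L libraries lay below them. The log2 change was -0.02 in RAS against control (95% interval -0.08 to 0.04, edgeR adjusted p = 0.547) and -0.02 in DOT1L OE against control (-0.10 to 0.05, edgeR adjusted p = 0.603). With the GC offset these became -0.58 (adjusted p = 8.97e-18) and -0.12 (adjusted p = 0.00175). From RAS to RAS/shDOT1L LMNA fell 1.30-fold (log2 change -0.38 ± 0.04, edgeR adjusted p = 7.23e-10), a change that the GC offset took to -0.0046 (adjusted p = 0.938). The gene count adds the transcripts of lamin A and lamin C, which it does not separate.

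Because a ratio of 2 genes within a library does not depend on how libraries are scaled, LMNA was also set against LMNB1. Per kb of exon, LMNA exceeded LMNB1 14.9-fold ± 0.753 in DOT1L OE, 83.0-fold ± 18.7 in control, 191-fold ± 36.7 in RAS and 436-fold ± 282 in RAS/shDOT1L. The RAS/shDOT1L libraries spread widely, at 757, 320 and 231, and the first of them holds the 11 LMNB1 counts. On the log2 scale the count ratio differed by 1.21 between RAS and control, by 1.02 between RAS/shDOT1L and RAS and by -2.46 between DOT1L OE and control. In each comparison the groups did not overlap, and the exact permutation test, two-sided, gave p = 0.1, the smallest that 3 against 3 allows. The RAS/shDOT1L against RAS difference was 0.53 without RAS/shDOT1L replicate 1, and the RAS against control difference was 0.69 with the GC offset.

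B-type lamins together made up 22.1% ± 0.858 of lamin reads per kb in DOT1L OE, 11.7% ± 1.02 in control, 13.5% ± 0.039 in RAS and 11.3% ± 0.448 in RAS/shDOT1L. LMNB1 alone was 5.24% ± 0.208 of the lamin reads in DOT1L OE, 1.10% ± 0.22 in control, 0.466% ± 0.10 in RAS and 0.259% ± 0.13 in RAS/shDOT1L. LMNB2 therefore held most of the B-type reads in every library, and per kb it exceeded LMNB1 9.89-fold ± 1.82 in control, 28.8-fold ± 5.65 in RAS and 3.22-fold ± 0.030 in DOT1L OE.

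**Figure D2:**
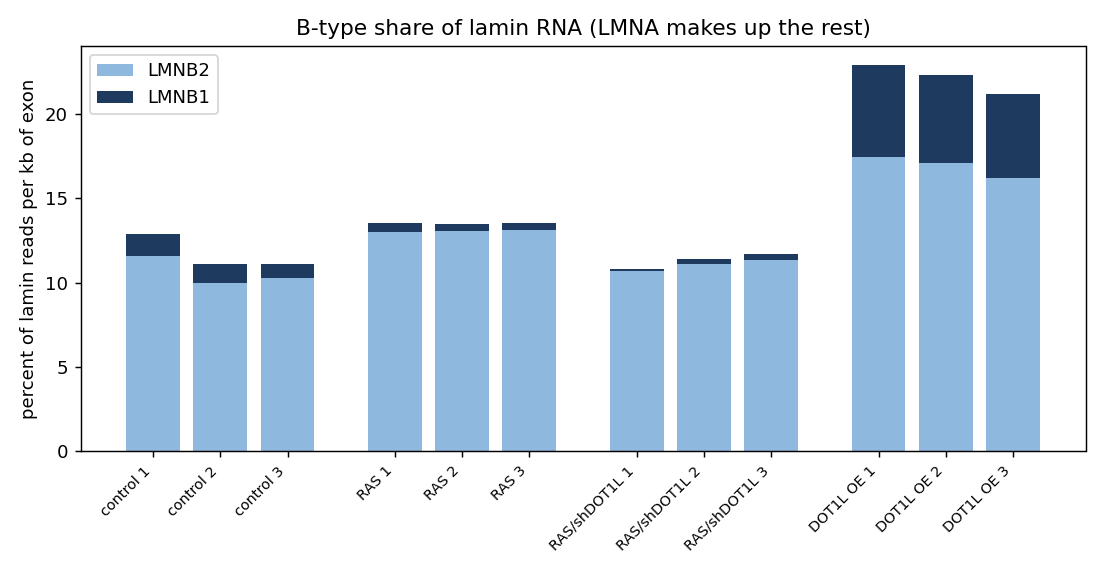
Share of LMNB1 and LMNB2 in the lamin reads per kb of exon (percent, axis from 0) in each of the 12 libraries, as stacked bars with LMNA making up the rest. The bars reach 21.2% to 22.9% in DOT1L OE and 10.8% to 13.5% elsewhere, and the LMNB1 part is thinnest in RAS/shDOT1L.

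Lamin precursors are matured by enzymes that add and trim a lipid tail. Of 4 such genes tested (ZMPSTE24, ICMT, RCE1 and FNTA), 1 rose and 1 fell in RAS against control. Over all genes 31.9% were called higher and 32.0% lower there. RCE1, a protease of the processing step, was 2.23-fold higher (24.3 ± 1.93 against 10.9 ± 2.14 CPM) and ZMPSTE24, the protease that removes the tail of prelamin A, 1.41-fold lower (67.7 ± 3.35 against 95.2 ± 3.99 CPM). With the GC offset the ZMPSTE24 value was 0.09 on the log2 scale and was not called. RCE1 was then at 0.60, still called, and ICMT was called lower at -0.20. In DOT1L OE against control ICMT, which methylates the tail, and RCE1 rose and FNTA fell.

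LBR went its own way among the 10 genes. It was at 15.02, 11.5 and 10.9 CPM in control, fell to 4.71, 4.66 and 5.999 in RAS, and stood at 20.4, 23.2 and 25.05 in RAS/shDOT1L and 24.7, 25.1 and 26.8 in DOT1L OE. RAS was the lowest group, control came next, and RAS/shDOT1L and DOT1L OE overlapped above both. RAS lay 2.44-fold below control (log2 change -1.28 ± 0.20, edgeR adjusted p = 1.50e-06), and from RAS to RAS/shDOT1L LBR rose 4.53-fold (log2 change 2.18 ± 0.18, edgeR adjusted p = 3.58e-12). It was also higher than in control in RAS/shDOT1L (1.84-fold, log2 change 0.88 ± 0.15, edgeR adjusted p = 1.23e-05) and in DOT1L OE (2.05-fold, log2 change 1.04 ± 0.12, edgeR adjusted p = 1.14e-08). All 4 calls held with the GC offset, at log2 changes of -0.83, 1.89, 1.03 and 1.11.

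Because LBR is a sterol reductase as well as a lamin receptor, 9 other genes of late cholesterol synthesis were set beside it. In RAS against control 1 rose and 6 fell, with a median log2 change of -0.58 against -0.04 over all genes tested. Over all genes 31.9% were called higher and 32.0% lower there. SC5D, a sterol desaturase, fell from 47.2 ± 2.16 to 13.03 ± 2.84 CPM, and MSMO1, a sterol methyl oxidase, from 46.0 ± 1.98 to 17.6 ± 2.94. In RAS/shDOT1L against RAS 7 rose and 0 fell (median 1.00), led by MSMO1 at 214 ± 5.41 against 17.6 ± 2.94 CPM. Over all genes 26.3% were called higher and 26.4% lower in that comparison. LBR and this list thus lay on the same side in those comparisons, and also in RAS/shDOT1L against control, where 6 of the 9 rose and 0 fell. In DOT1L OE against control they did not: 0 of the 9 rose and 6 fell (median -1.07), with DHCR7, another sterol reductase, at 47.1 ± 1.68 against 104 ± 4.56 CPM in control, while LBR rose. There 29.9% of all genes were called in each direction, and in RAS/shDOT1L against control 27.9% were called higher and 27.6% lower. TM7SF2, the enzyme whose reaction LBR also carries out, averaged 9.16 CPM in DOT1L OE against 23.1 in control, with 18.8 in RAS and 18.9 in RAS/shDOT1L. With the GC offset 1 of the 9 rose and 6 fell in RAS against control, and 8 rose and 0 fell in RAS/shDOT1L against RAS. In DOT1L OE against control 0 then rose and 6 fell. In RAS/shDOT1L against control 5 then rose and 1 fell, and the gene that fell was TM7SF2 (log2 change -0.46, adjusted p = 0.00638).

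TMPO encodes the lamina-associated polypeptides, some bound to the membrane and one in the nuclear interior, and its gene count joins them. It was at 30.9, 28.6 and 26.7 CPM in control, 10.1, 12.7 and 16.1 in RAS, 16.04, 18.2 and 16.3 in RAS/shDOT1L and 92.0, 89.8 and 85.6 in DOT1L OE. DOT1L OE stood far above the rest, control came second, and RAS and RAS/shDOT1L overlapped. Against control, TMPO was 2.22-fold lower in RAS (log2 change -1.15 ± 0.14, edgeR adjusted p = 2.15e-08) and 1.70-fold lower in RAS/shDOT1L (log2 change -0.76 ± 0.12, edgeR adjusted p = 6.47e-06). In DOT1L OE it was 3.11-fold higher than in control (log2 change 1.64 ± 0.08, edgeR adjusted p = 1.63e-18). In RAS/shDOT1L against RAS the log2 change was 0.40 ± 0.17 (edgeR adjusted p = 0.0522) and 0.10 with the GC offset.

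LEMD3, an inner membrane protein that also binds SMAD proteins and dampens TGF-β signalling, was at 16.4, 18.1 and 14.8 CPM in control, 9.77, 15.2 and 13.98 in RAS, 9.45, 13.8 and 11.9 in RAS/shDOT1L and 22.7, 23.9 and 23.2 in DOT1L OE. DOT1L OE lay above all other groups, and control and RAS overlapped. Against control, LEMD3 rose 1.42-fold in DOT1L OE (log2 change 0.51 ± 0.11, edgeR adjusted p = 0.000266) and fell 1.40-fold in RAS/shDOT1L (log2 change -0.48 ± 0.16, edgeR adjusted p = 0.0143). The second call was lost without control replicate 2 (adjusted p = 0.0741) and without RAS/shDOT1L replicate 1 (adjusted p = 0.0763). RAS against control gave -0.34 (95% interval -0.67 to -0.01, edgeR adjusted p = 0.0660).

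EMD, which encodes emerin, was the steadiest of the LEM domain genes. Its values ran from 100.7 to 104.6 CPM in control, 101.1 to 108.6 in RAS, 88.9 to 100.2 in RAS/shDOT1L and 102.6 to 113.9 in DOT1L OE. It passed the test in none of the 4 comparisons, with log2 changes of 0.04, -0.14, 0.10 and -0.11 (edgeR adjusted p = 0.537, 0.0906, 0.146 and 0.168) in RAS against control, RAS/shDOT1L against RAS, DOT1L OE against control and RAS/shDOT1L against control. With the GC offset it was lower in RAS than in control (-0.39, adjusted p = 1.85e-06) and in RAS/shDOT1L than in control (-0.26, adjusted p = 0.00163).

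BANF1, the DNA-bridging partner of the LEM proteins, was lowest in control. It was at 88.2, 78.2 and 91.4 CPM there, 110.3, 120.1 and 119.7 in RAS, 132.7, 119.5 and 112.7 in RAS/shDOT1L and 101.1, 119.9 and 116.4 in DOT1L OE. The other 3 groups overlapped with each other, and none overlapped with control. Against control BANF1 was 1.36-fold higher in RAS (log2 change 0.44 ± 0.07, edgeR adjusted p = 7.44e-07), 1.42-fold in RAS/shDOT1L (0.51 ± 0.07, edgeR adjusted p = 9.59e-07) and 1.31-fold in DOT1L OE (0.39 ± 0.07, edgeR adjusted p = 9.14e-06). The rise in RAS was lost with the GC offset (0.09, adjusted p = 0.277), while the rises in RAS/shDOT1L and DOT1L OE were 0.38 and 0.29 there. Of 7 genes for kinases that act on this protein and for chromatin partners of the inner membrane, VRK1, a kinase that releases it from chromatin, rose 2.33-fold in DOT1L OE against control (13.7 ± 0.548 against 5.91 ± 0.68 CPM). CBX5, encoding the heterochromatin protein that LBR binds, was 1.80-fold higher there (180 ± 9.82 against 100 ± 0.301 CPM). In all, 3 of the 7 rose and 2 fell in that comparison, and 1 rose and 5 fell in RAS against control (median -0.55). Over all genes 29.9% were called in each direction in DOT1L OE against control. In RAS against control 31.9% were called higher and 32.0% lower. With the GC offset the counts of the list were 5 and 2 in DOT1L OE against control and 1 and 2 in RAS against control (median -0.04).

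SUN1 and SUN2, the inner partners of the bridge to the cytoskeleton, went apart. SUN1 was at 80.7, 79.2 and 94.1 CPM in control and 80.5, 81.3 and 79.4 in DOT1L OE, against 50.6, 42.3 and 49.0 in RAS and 47.1, 42.9 and 41.6 in RAS/shDOT1L. Control and DOT1L OE overlapped, RAS and RAS/shDOT1L overlapped, and the 2 pairs were well apart. SUN1 was 1.79-fold lower in RAS (log2 change -0.84 ± 0.08, edgeR adjusted p = 1.32e-10) and 1.92-fold lower in RAS/shDOT1L (-0.94 ± 0.09, edgeR adjusted p = 1.78e-10) than in control. The log2 change was -0.09 in RAS/shDOT1L against RAS (95% interval -0.29 to 0.11) and -0.07 in DOT1L OE against control (-0.21 to 0.07).

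SUN2 was at 87.2, 81.6 and 77.4 CPM in control, 95.4, 101.6 and 92.8 in RAS, 43.2, 54.8 and 53.7 in RAS/shDOT1L and 117, 123 and 114 in DOT1L OE. The groups did not overlap, in the order DOT1L OE, RAS, control, RAS/shDOT1L, the same order as for LMNB2. From RAS to RAS/shDOT1L SUN2 fell 1.89-fold (log2 change -0.92 ± 0.09, edgeR adjusted p = 8.19e-11), and from control to DOT1L OE it rose 1.44-fold (log2 change 0.53 ± 0.06, edgeR adjusted p = 6.74e-09). RAS exceeded control 1.18-fold (log2 change 0.23 ± 0.07, edgeR adjusted p = 0.00296), which turned to -0.32 (adjusted p = 0.000175) with the GC offset. Among 7 genes of nesprins and torsins, the outer partners and the envelope ATPases, SYNE1, a giant nesprin, was 2.20-fold lower in RAS than in control (46.0 ± 5.24 against 101 ± 7.03 CPM) and 1.85-fold lower in RAS/shDOT1L than in control. TOR1A, torsin A, rose 1.55-fold in RAS (141 ± 2.28 against 90.9 ± 7.38 CPM).

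RAS against control asks how the envelope genes stood in oncogene-induced senescence. Of the 10 genes, 3 were higher (LMNB2, BANF1 and SUN2), 4 lower (LMNB1, LBR, TMPO and SUN1) and 3 did not pass, with a median log2 change of -0.18 against -0.04 over all genes. Over all 13554 genes tested, 31.9% were called higher and 32.0% lower, and 40.4% were called with a change of at least 1.5-fold, a size that the 4 lower genes reached. The 3 genes that rose did so by under 1.5-fold and rest on how GC content is treated: with the GC offset 0 of the 10 were higher and 8 lower, with a median of -0.49. Scaled by library size alone, 1 was higher and 7 lower, and 36.9% of all calls were higher ones, against 4327 higher and 4343 lower calls with TMM. That scaling moved the median of all genes to -0.24. LMNB1, LBR, TMPO and SUN1 were lower in RAS under every alternative tried.

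In these libraries the change of a gene moved with its transcript GC content. Genes up to 39.5% GC, the lowest 10% of those tested, had a median log2 change of -0.66 in RAS against control, and those from 61.6%, the highest 10%, had 0.59. The 2 values were 0.41 and -0.43 in RAS/shDOT1L against RAS and -0.20 and 0.12 in DOT1L OE against control. The 10 genes spanned most of this range, from 41.8% for LBR, 42.5% for TMPO and 43.7% for LEMD3, through 50.0% for LMNB1, 50.5% for SUN1, 55.5% for BANF1 and 57.8% for EMD, to 61.3% for SUN2, 62.2% for LMNA and 62.8% for LMNB2. The part of this trend in the changes was not tested beyond the fits with the GC offset.

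**Figure D3:**
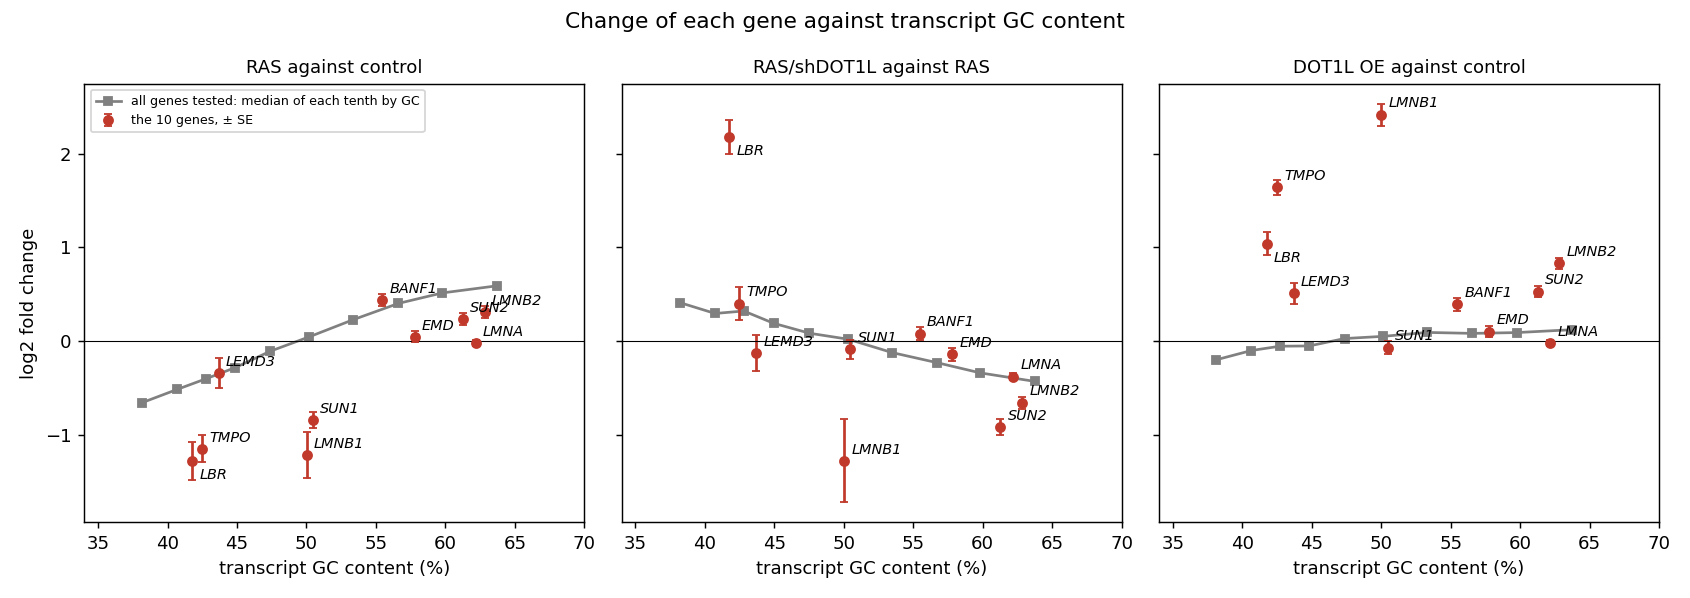
Log2 fold change (± SE) of the 10 genes against transcript GC content (percent) in 3 comparisons, with the grey line joining the medians of all genes tested, in 10 bins by GC content. In RAS against control LMNB2 and SUN2, whose changes turn negative with the GC offset, lie above 0 but below the grey line, and in DOT1L OE against control LMNB1, TMPO and LBR lie far above a nearly flat line.

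RAS/shDOT1L against RAS asks what differed when the hairpin was added to RAS cells. Of the 10 genes, 1 was higher (LBR), 4 were lower (LMNA, LMNB1, LMNB2 and SUN2) and 5 did not pass, with a median of -0.14 against 0.03 over all genes. Over all 13398 genes, 26.3% were called higher and 26.4% lower, and 30.6% were called at 1.5-fold or more, which 4 of the 10 genes were. None of the genes lower in RAS than in control, other than LBR, was called higher in RAS/shDOT1L than in RAS, though TMPO passed there under 5 of the alternatives. With the GC offset 2 genes were higher (LBR, and BANF1 at 0.28) and 3 lower (LMNB1, LMNB2 and SUN2). HRAS RNA had a log2 change of -0.85 in this comparison, and its part in these values was not tested.

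DOT1L OE against control sets the cells that carried the DOT1L vector, without oncogenic RAS, beside the control cells. Here 7 of the 10 genes were higher (LMNB1, LMNB2, LBR, TMPO, BANF1, SUN2 and LEMD3), 0 were lower and 3 (LMNA, EMD and SUN1) did not pass, with a median log2 change of 0.52 against 0.01 over all genes. The background was 29.9% called higher and 29.9% lower of 13660 genes, and 32.9% called at 1.5-fold or more, a size that LMNB1, TMPO, LBR and LMNB2 reached. The 7 genes were called higher under every alternative tried, the GC offset and each left-out library included. With the GC offset LMNA was called lower.

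RAS/shDOT1L against control compares cells with both viruses with those holding the empty vector, and it shares its libraries with the comparisons above. Of the 10 genes, 2 were higher (LBR and BANF1), 7 lower and only EMD did not pass, with a median of -0.45 against -0.01 over all genes. Over 13519 genes 27.9% were called higher, 27.6% lower and 32.1% at 1.5-fold or more, as were LMNB1, LBR, TMPO, SUN1 and SUN2. Beyond the values given above, LMNA had fallen 1.33-fold (log2 change -0.41 ± 0.04, edgeR adjusted p = 2.86e-10), LMNB2 1.28-fold lower (-0.36 ± 0.07, edgeR adjusted p = 5.79e-05) and SUN2 1.62-fold lower (-0.69 ± 0.09, edgeR adjusted p = 9.17e-08). Scaled by library size alone, 8 of the 10 were lower, and 39.97% of all calls were higher ones, against 3775 higher and 3726 lower with TMM.

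**Figure D4:**
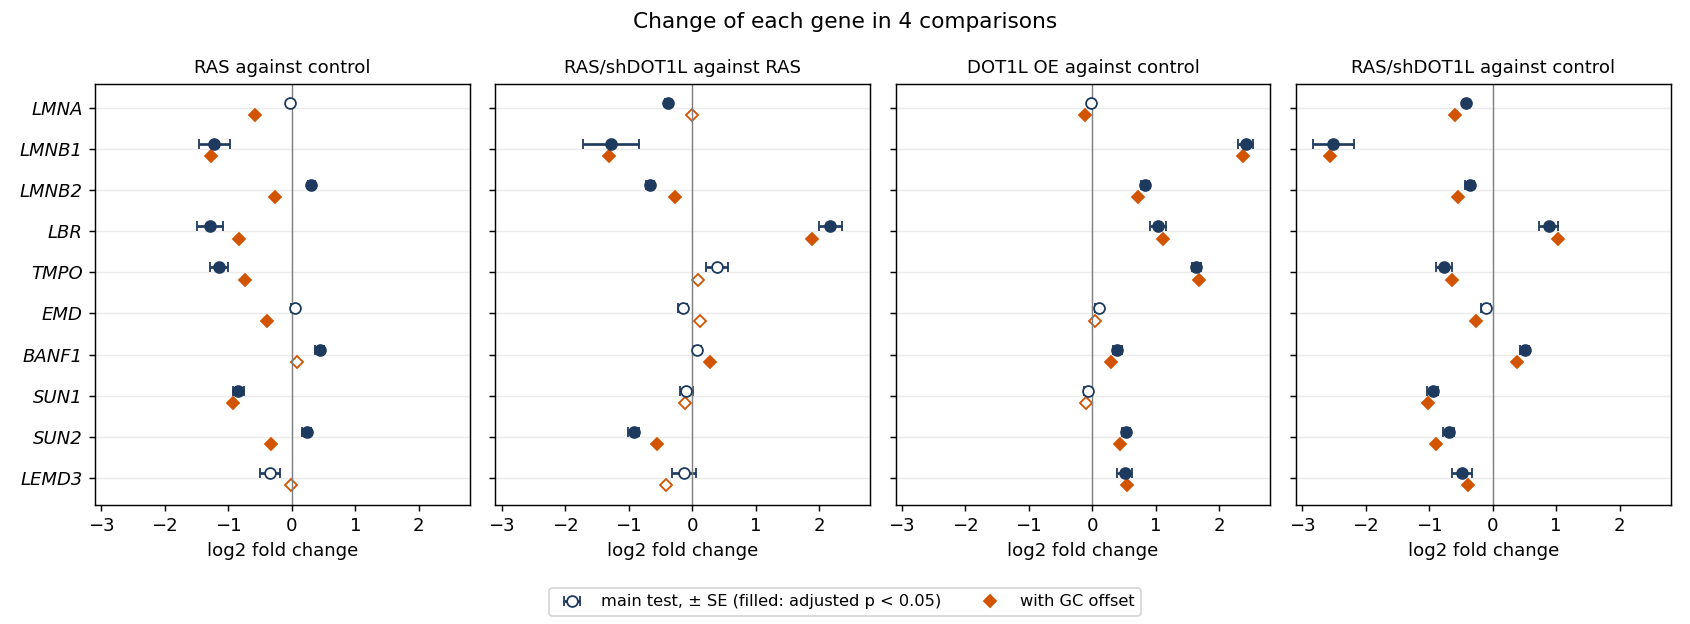
Log2 fold change of the 10 genes in the 4 comparisons, as circles for the test with TMM scaling (± SE) and diamonds for the fit with the GC offset; filled marks passed adjusted p under 0.05. LMNB2, EMD and SUN2 change side in RAS against control with the offset, as EMD does in RAS/shDOT1L against RAS, and the 7 genes called in DOT1L OE against control stay on their side.

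The wider envelope gave mixed counts. Of 8 other inner nuclear membrane genes, 3 rose and 5 fell in RAS against control, where 31.9% of all genes were called higher and 32.0% lower. LEMD2, a further LEM domain gene, was 1.55-fold higher (101 ± 6.16 against 65.3 ± 1.60 CPM), and TMEM43, a partner of emerin, 1.47-fold lower (74.3 ± 1.28 against 109 ± 2.79 CPM). With the GC offset 3 rose and 4 fell. LEMD2 was then at a log2 change of 0.25 and TMEM43 at -0.56, TMEM201 lost its call (0.07) and TOR1AIP2 turned from lower to higher (0.29). In DOT1L OE against control 5 of the 8 rose and 3 fell (median 0.61). NRM (nurim) went from 20.6 ± 1.58 to 48.3 ± 2.49 CPM, NEMP1 from 18.6 ± 2.56 to 44.9 ± 1.60 and TMEM201 from 18.001 ± 0.864 to 35.6 ± 1.85. In RAS/shDOT1L against RAS 2 rose and 4 fell. Of 29 nuclear pore genes tested, 5 rose and 14 fell in RAS against control (median -0.20), where 31.9% and 32.0% of all genes did, but 5 rose and 6 fell (median -0.10) with the GC offset. In DOT1L OE against control 21 rose and 3 fell (median 0.35), with the ring anchor NDC1 at 53.5 ± 2.36 against 24.7 ± 4.13 CPM and the scaffold gene NUP155 at 59.9 ± 2.44 against 33.4 ± 1.47. In RAS/shDOT1L against RAS 10 rose and 11 fell, and with the GC offset 2 rose and 14 fell. Over all genes 26.3% were called higher and 26.4% lower in that comparison with TMM scaling. NUP43, of the outer ring, averaged 36.7 ± 1.26 CPM in control and 23.7 ± 5.38 in RAS but 6.25 ± 1.59 in RAS/shDOT1L. RANBP2 and POM121 have close paralogs that may share reads. Their own values are not given here, but both are among the 29 genes counted. Of 12 genes of the ESCRT-III machinery that seals the envelope after mitosis, 6 rose and 4 fell in RAS against control, a balance that turned to 3 and 5 with the GC offset, and 2 rose and 7 fell in DOT1L OE against control, where 29.9% of all genes were called in each direction.

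Because envelope genes are used when nuclei rebuild after division, 22 genes of S phase and mitosis were set beside them. None rose and 18 fell in RAS against control (median -1.08), 2 rose and 13 fell in RAS/shDOT1L against RAS (median -0.74), and 22 of 22 rose in DOT1L OE against control (median 1.96). In RAS/shDOT1L against control 1 rose and 20 fell (median -1.70). Over all genes 31.9% were called higher and 32.0% lower in RAS against control, and 26.3% and 26.4% in RAS/shDOT1L against RAS. The shares were 29.9% in each direction in DOT1L OE against control, and 27.9% and 27.6% in RAS/shDOT1L against control. MKI67, a marker of dividing cells, averaged 111 CPM in DOT1L OE, 28.1 ± 2.72 in control, 5.58 ± 0.299 in RAS and 1.43 ± 0.29 in RAS/shDOT1L. RRM2, a subunit of the enzyme that makes DNA precursors, averaged 379 ± 3.57, 79.7 ± 1.99, 27.7 ± 0.972 and 7.38 ± 1.87 CPM in the same order. The change of LMNB1 lay on the side of the list's median in each comparison. TMPO did so except in RAS/shDOT1L against RAS, where its log2 change of 0.40, not called, stood against a median of -0.74. LMNA, SUN1 and EMD did not pass in DOT1L OE against control, where the list rose, with log2 changes of -0.02, -0.07 and 0.10. With the GC offset LMNA was called lower there (-0.12). EMD passed in no comparison with TMM scaling. LBR, LMNB2, SUN2 and BANF1 each departed from the list in 1 or more comparisons. LBR rose and the list fell in RAS/shDOT1L against RAS. BANF1, LMNB2 and SUN2 were called higher in RAS against control with TMM scaling, though not with the GC offset. LBR and BANF1 also rose in RAS/shDOT1L against control, where the list fell, with log2 changes of 0.88 and 0.51. With the GC offset these were 1.03 and 0.38, and BANF1 was then also called higher in RAS/shDOT1L against RAS (0.28). The part of cell division in the values of the envelope genes was not tested.

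**Figure D5:**
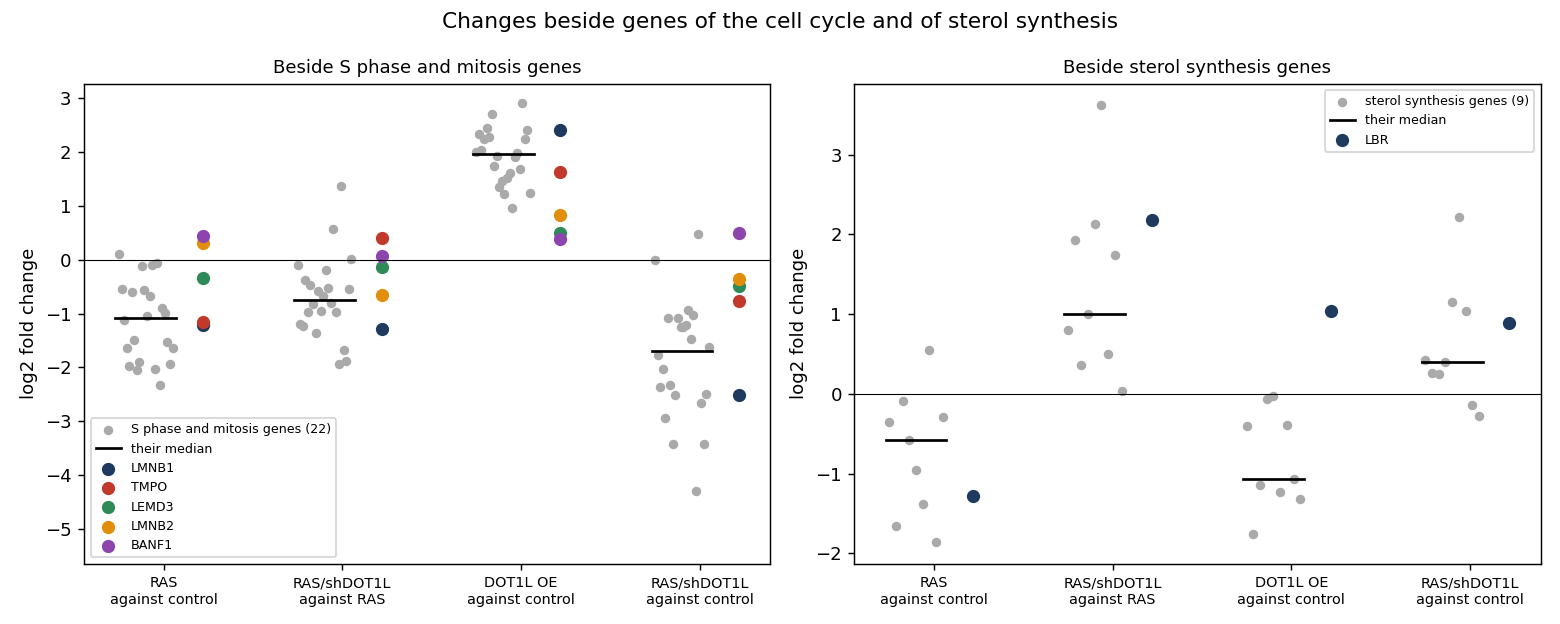
Log2 fold changes in the 4 comparisons of 22 S phase and mitosis genes with 5 of the envelope genes beside them (left) and of 9 sterol synthesis genes with LBR beside them (right), as 1 grey point per list gene and a black line at the list's median. LMNB1 lies on the same side of 0 as the median of the cell cycle genes in all 4 comparisons, and LBR lies on the opposite side from the sterol genes in DOT1L OE against control.

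Lamina genes have also been studied with the sensing of DNA that escapes the nucleus. Of 6 genes of that pathway, 3 rose and 0 fell in RAS against control, where 31.9% of all genes were called higher and 32.0% lower. STING1, the adaptor of the pathway, was 3.71-fold higher (103 ± 9.26 against 27.6 ± 1.48 CPM) and IRF3, a transcription factor downstream, 1.72-fold higher. With the GC offset 4 rose and 1 fell (TREX1, log2 change -0.46), with STING1 at 1.47 and IRF3 at 0.23. In RAS/shDOT1L against RAS 0 rose and 2 fell, STING1 to 43.6 ± 3.80 CPM, and with the GC offset 0 rose and 3 fell. Over all genes 26.3% were called higher and 26.4% lower there. In DOT1L OE against control 3 of the 6 rose and 1 fell, where 29.9% of all genes were called in each direction. CGAS, the DNA sensor, rose 2.33-fold (17.1 ± 1.39 against 7.35 ± 0.713 CPM) and STING1 2.93-fold. TBK1, another gene of the list, fell (14.6 ± 0.739 against 21.8 ± 1.51 CPM). With the GC offset 4 rose and 1 fell.

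Over the 12 libraries, the genes whose log2 CPM followed LMNB1 most closely included KIF2C, a mitotic kinesin (Pearson r = 0.990), MRAS and ADCY3 (0.988 each) and SHCBP1 (0.986), among 8561 genes with a mean of at least 10 CPM. Those closest to LMNA were NUS1 (0.979), RB1CC1 (0.976), PEPD and FBXO7 (0.971 each) and MAP3K7 (0.966). Among the other envelope genes LEMD3 (0.895), TMPO (0.893) and LMNB2 (0.861) were most like LMNB1, and LBR (0.308) and BANF1 (-0.318) least. These values describe 12 points in 4 groups that share scaling and the GC trend, and they mostly reflect differences between groups.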

How the data were processed

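RNA-seq reads were aligned by the authors to GRCh38 with STAR (2.6.1 in the submitters' processing notes), and the deposited files hold raw whole-number counts per Ensembl gene ID in 12 libraries. Several figure legends of the study call the RNA-seq values technical replicates of 1 experiment, and its statistics section describes the data shown in the same way. Its RNA-seq methods speak of biological replicates, but of fewer per condition than the libraries deposited. The p-values therefore measure a spread that may be technical. Chi-square values per degree of freedom of library pairs of a group ran from 4.33 to 7.87, so none was a copy of another.

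The 6 libraries of a comparison were tested with edgeR 4.0.16 (R 4.3.3; filterByExpr, TMM factors, glmQLFTest, two-sided), and p-values were adjusted by Benjamini-Hochberg over all genes tested, with calls at adjusted p under 0.05. CPM used TMM factors over the 12 libraries, and CPM per kb the merged exons of the GENCODE annotation. The GC offset was the trend of each library over 20 bins of transcript GC content. Scripts were tested on simulated data. Alternatives were DESeq2 1.42.0, voom in limma 3.58.1, other scalings and filters, 1 fit over 4 groups, a replicate block and leaving out each library.

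All 10 genes are named, with up to 3 genes of smallest p per list and the 5 most like LMNB1 or LMNA, except for genes that are not reported here. TM7SF2 and, in comparisons where they did not rank, MKI67, NUP43 and RRM2 were named after their values were seen. Members, lists and tests were chosen with earlier results of these data known.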

Additional observations from a re-analysis of the deposited data

How the results depend on the processing

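The number of the 10 genes called stayed within 1.5 times of 7, 5, 7 and 9 under every alternative. The GC offset moved most: in RAS against control it reversed LMNB2, EMD and SUN2 (-0.26, -0.39 and -0.32 on the log2 scale, the same with the replicate block added), in RAS/shDOT1L against RAS it reversed EMD (0.12, with or without the block), and it moved the RAS against control difference of the log2 LMNA to LMNB1 count ratio from 1.21 to 0.69. Scaling by library size alone reversed EMD in RAS against control (-0.15) and LMNA and SUN1 in DOT1L OE against control (0.056 and 0.0087), and ended the calls of LMNB2 and SUN2 in RAS against control (adjusted p = 0.114 and 0.657). DESeq2 size factors and the DESeq2 Wald test gave LMNA 0.0019 in RAS against control. Leaving out 1 library at a time, LEMD3 ranged from -0.30 (without RAS replicate 1) to 0.0041 (without RAS/shDOT1L replicate 1) in RAS/shDOT1L against RAS, and in DOT1L OE against control SUN1 ranged from -0.13 to 0.0092 (without control replicates 2 and 3) and LMNA from -0.051 to 0.015 (without DOT1L OE replicates 3 and 1). Apart from the GC offset and the scaling by library size, the reversed values were of genes that did not pass the test. TMPO in RAS/shDOT1L against RAS passed with limma-voom (adjusted p = 0.0363), with 1 fit over all groups (0.0110), with a filter at 1 CPM (0.0490), with library size alone (0.0225) and without RAS replicate 3 (0.0130). Same-numbered libraries did not deviate together (correlations -0.077 to 0.033 over the comparisons), and 1 of 12 correlated best with its own number. These values gave no sign of pairing by number, though they cannot show that the samples were unpaired. The replicate block changed none of the 40 calls. Depth limits LMNB1 most, with 11 to 80 counts a library in RAS and RAS/shDOT1L. The causes of these differences were not tested.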
